A study of Mus musculus with 4 samples.

Results

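The genes described here are the clock loop and PAR bZIP genes, a set of 10 transcripts that make up or read out the circadian clock: Arntl, Npas2, Per1, Per2, Per3, Nr1d1, Nr1d2, Dbp, Tef and Nfil3. They are 10 of the 48709 genes counted in each library. They were chosen by their values in these same libraries, because several of them moved in opposite phase, so their levels and differences are given as a description without a test. Liver mRNA of untreated adult mice, labelled as strain C57BL/6, was sequenced as 4 libraries, 2 from WT and 2 from DDI2-KO mice. The paper used mice of both sexes, and the sex behind each library was not examined here. WT mice were littermates that carry the Ddi2 flox/flox allele without Cre recombinase. DDI2-KO mice carry the same Ddi2 flox/flox allele with Cre driven by the albumin promoter, a deletion that the paper describes as liver-specific. Which cells of the liver kept the gene was not examined here. The study describes the libraries of a group as biological replicates, and the hour at which each liver was collected is not given in the sources used here.

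The circadian clock of the liver is a loop of transcription factors. CLOCK or its relative NPAS2 pairs with BMAL1, the product of Arntl, and switches on the genes of the PER and CRY proteins, the nuclear receptors NR1D1 and NR1D2 and the PAR bZIP factors DBP and TEF through DNA elements called E-boxes. PER and CRY proteins then inhibit that pair, NR1D1 and NR1D2 repress Arntl, Npas2 and Nfil3 through elements called ROREs, and NFIL3 opposes the PAR bZIP factors at a further element, the D-box. In mouse liver the transcripts of Arntl, Npas2 and Nfil3 are known to peak around dawn, that of Nr1d1 in the middle of the day, those of Nr1d2, Dbp, Per3 and Tef late in the day, that of Per1 around dusk and that of Per2 early in the night. The first 3 are called the dawn arm below and the other 7 the day and dusk arm.

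The elements through which the loop acts are shown first, since the members are grouped by them in the account above. RefSeq promoter windows of 300 bases around the annotated starts (build GRCm38.p6) were at hand for 9 of the 10 members, and both strands were searched for the E-box CACGTG, for the D-box as TTACGTAA or TTATGTAA and for the RORE, a stretch rich in A and T that ends in GGTCA. No match of one element overlapped a match of another. An E-box was found in 2 of the 9 members, Per1 and Tef, a D-box in Per3 alone, and a RORE in Arntl alone. Among 7 other genes of the loop with a window, 3 held an E-box, namely Bhlhe41, Ciart and Cry1, and Ciart held it 3 times. Over all 32851 windows the E-box stood in 7.15%, the D-box in 1.06% and the RORE in 0.606%. Each stretch below is written 5′ to 3′ on the strand of its gene with the element in capitals. Those of Per1 (chr11:69098756-69098815, plus strand), Tef (chr15:81811249-81811308, plus strand), Ciart (chr3:95882252-95882364, minus strand) and Per3 (chr4:151044796-151044890, minus strand) lie outside annotated exons, those of Per1 and Tef within the span of the gene and before one of its later starts, and that of Arntl (chr7:113207528-113207557, plus strand) lies in an exon just after the start.
Per1: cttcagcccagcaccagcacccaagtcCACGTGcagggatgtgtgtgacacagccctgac
Tef: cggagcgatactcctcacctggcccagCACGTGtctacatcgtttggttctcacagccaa
Ciart: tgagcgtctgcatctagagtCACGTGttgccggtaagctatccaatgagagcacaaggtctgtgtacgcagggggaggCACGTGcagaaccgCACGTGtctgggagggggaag
Per3: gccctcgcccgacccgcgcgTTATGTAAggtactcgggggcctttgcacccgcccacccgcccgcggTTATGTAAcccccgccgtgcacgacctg
Arntl: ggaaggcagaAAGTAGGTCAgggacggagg

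In Per1 the E-box began at position -166 from the start of transcription, and in Tef at -138 from the second of its annotated starts, with a further E-box at -127 from the first. The Per3 D-boxes began at -205 and -158, and the Arntl RORE at 28. A match of these letters is a description of the sequence and not a measured binding site.

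The authors deposited the number of reads on each gene, from 22501208 to 34109018 reads per library, and 3 reads corresponded to 0.0892 to 0.131 CPM, the read count relative to the size of the library after scaling by edgeR's TMM method. All 10 members passed edgeR's filter on low counts, which kept 13699 genes. Of these, 346 (2.53%) differed between the genotypes at an adjusted p under 0.05, by edgeR's quasi-likelihood test with p-values adjusted by the Benjamini-Hochberg method. In the libraries labelled DDI2-KO, 182 of them (1.33%) were higher and 164 (1.2%) were lower, a split that was 126 to 191 with upper-quartile scaling. The targeted gene did not separate the groups in the direction of its label. Ddi2 was at 141 and 123 CPM in WT and 157 and 164 CPM in the libraries labelled DDI2-KO (log2 fold change 0.28 ± 0.17, SE; edgeR adjusted p = 0.349). The files give reads per gene, and the deleted part of Ddi2 was not examined. The paper reports PCR genotyping of its animals and immunoblots of DDI2 protein in livers of both genotypes, which reads per gene do not address. DDI2-KO therefore means, from here on and in every direction given, the libraries so labelled. The liver identity of the tissue was plain, with the 5 hepatocyte markers Alb, Apoa1, Ttr, Hnf4a and Serpina1c summing to 151000 to 175000 CPM in WT and 141000 to 146000 CPM in the libraries labelled DDI2-KO.

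The members formed 2 opposed groups. Every member of the dawn arm was higher on average in DDI2-KO, with a median log2 fold change of 0.94 and a range of 0.93 to 1.18. Every member of the day and dusk arm was lower, with a median of -1.27 and a range of -2.43 to -0.62, whereas the median over all genes tested was -0.01. In 8 of the 10 members the DDI2-KO libraries lay apart from the WT libraries, 7 lower and 1 higher. Among all genes tested, 55.7% had groups that did not overlap, 27.7% lower and 28% higher, and nothing is read from the members' count because these values chose them. As the livers were sequenced in bulk, fewer cells of a type and less RNA per cell cannot be told apart.

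**Figure D1:**
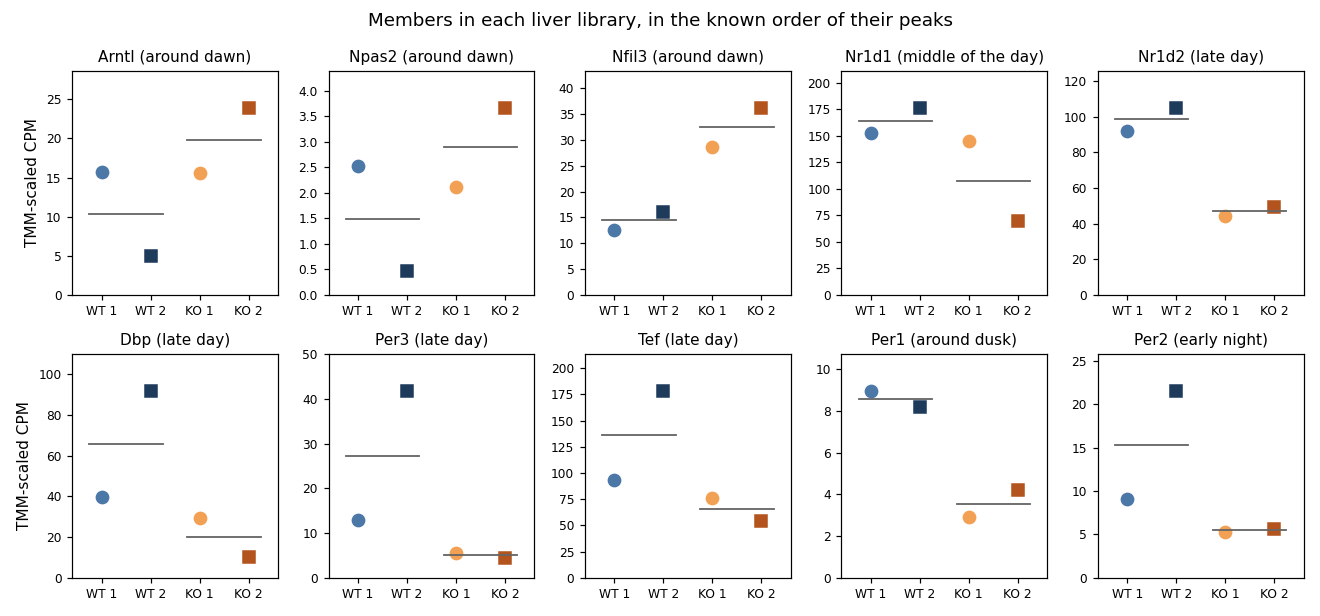
Level of each member in TMM-scaled CPM (vertical axis, from 0) in the WT libraries 1 and 2 and the DDI2-KO libraries 1 and 2, with grey bars for the group means and panels in the known order of peaks. WT library 2 is the lowest in Arntl and Npas2 and the highest in Dbp, Per3, Tef and Per2, and the groups overlap in Arntl and Npas2 alone.

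Arntl, which encodes BMAL1 (ENSMUSG00000055116, chr7:113207465-113314126, plus strand), had 528 and 153 reads in WT libraries 1 and 2 and 405 and 549 in DDI2-KO libraries 1 and 2. These were 15.7 and 4.95 CPM in WT and 15.6 and 23.9 CPM in DDI2-KO. The groups overlapped, since DDI2-KO library 1 lay level with WT library 1 and WT library 2 was by far the lowest. WT averaged 10.3 ± 7.6 CPM and DDI2-KO 19.8 ± 5.83 CPM (each SD, n = 2), a log2 fold change of 0.93 with a standard error of 0.60. Leaving out WT library 2 took the log2 fold change to 0.33 and leaving out WT library 1 took it to 2.00.

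Npas2, the relative of CLOCK that can replace it beside BMAL1 (ENSMUSG00000026077, chr1:39193731-39363236, plus strand), had the fewest reads of the set, 85 and 14 in WT and 55 and 84 in DDI2-KO. Its levels were 2.53 and 0.453 CPM in WT and 2.12 and 3.66 CPM in DDI2-KO. The libraries stood in the same order as for Arntl, and the groups overlapped again. The log2 fold change was 0.94 with a standard error of 0.74, and it was 0.19 without WT library 2 and 2.66 without WT library 1.

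Nfil3, the repressor that competes with the PAR bZIP factors (ENSMUSG00000056749, chr13:52967209-52981073, minus strand), was the steadiest gene of the dawn arm. It had 12.6 and 16.1 CPM in WT and 28.7 and 36.2 CPM in DDI2-KO. Both DDI2-KO libraries lay above both WT libraries, and the libraries of a group were close to each other. WT averaged 14.4 ± 2.44 CPM and DDI2-KO 32.5 ± 5.33 CPM (each SD, n = 2), a ratio of 2.26, and the log2 fold change of 1.18 (standard error 0.20) stayed between 1.01 and 1.36 with any 1 library left out.

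Nr1d1 and Nr1d2 encode the nuclear receptors REV-ERBα and REV-ERBβ, which repress the dawn arm. Nr1d1 (ENSMUSG00000020889, chr11:98767932-98775333, minus strand) had the highest mean level per kilobase of the members, with 152 and 176 CPM in WT and 145 and 69.2 CPM in DDI2-KO. DDI2-KO library 1 came within a small distance of WT library 1, and DDI2-KO library 2 stood well below the rest. WT averaged 164 ± 16.9 CPM and DDI2-KO 107 ± 53.5 CPM (each SD, n = 2), a log2 fold change of -0.62 with a standard error of 0.33. It was -0.17 without DDI2-KO library 2 and -1.24 without DDI2-KO library 1, so most of its size rested on DDI2-KO library 2.

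Nr1d2 (ENSMUSG00000021775, chr14:18204054-18239127, minus strand) behaved differently within the groups, with 92.1 and 105 CPM in WT and 44.4 and 49.3 CPM in DDI2-KO. The libraries of each group lay close together and the groups lay far apart. WT averaged 98.8 ± 9.45 CPM and DDI2-KO 46.8 ± 3.5 CPM (each SD, n = 2), and the log2 fold change of -1.08 (standard error 0.17) ran only from -1.17 to -0.98 with 1 library left out. Between the DDI2-KO libraries Nr1d1 differed by a ratio of 2.09 and Nr1d2 by a ratio of 1.11.

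Dbp and Tef encode PAR bZIP factors, which activate genes of detoxification and lipid metabolism through D-boxes. Dbp (ENSMUSG00000059824, chr7:45705088-45710203, plus strand) had 1342, 2831, 755 and 240 reads in WT libraries 1 and 2 and DDI2-KO libraries 1 and 2, or 39.9, 91.6, 29.2 and 10.4 CPM. WT library 2 was the highest and DDI2-KO library 2 the lowest, 8.77 times apart, while the remaining 2 libraries lay between them and near each other. WT averaged 65.8 ± 36.6 CPM and DDI2-KO 19.8 ± 13.2 CPM (each SD, n = 2), and the log2 fold change of -1.73 (standard error 0.72) ran from -2.65 to -1.01 with 1 library left out.

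Tef (ENSMUSG00000022389, chr15:81802421-81826863, plus strand) had 93.8 and 178 CPM in WT and 76.6 and 53.8 CPM in DDI2-KO. The libraries stood in the same order as for Dbp over a narrower span, a ratio of 3.31 from the lowest to the highest. Its log2 fold change was -1.06 with a standard error of 0.33, and it was -0.53 without WT library 2.

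The Per genes encode the inhibitors that close the loop. Per3 (ENSMUSG00000028957, chr4:151003652-151044665, minus strand) had 435, 1288, 145 and 104 reads in WT libraries 1 and 2 and DDI2-KO libraries 1 and 2, or 12.9, 41.7, 5.6 and 4.53 CPM. It had the widest span of the members, 9.21-fold between WT library 2 and DDI2-KO library 2, and the DDI2-KO libraries lay close together. WT averaged 27.3 ± 20.3 CPM and DDI2-KO 5.06 ± 0.761 CPM (each SD, n = 2). The log2 fold change of -2.43 (standard error 0.64) was the most negative of the set and was -1.35 without WT library 2.

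Per2 (ENSMUSG00000055866, chr1:91415982-91459324, minus strand), for which no promoter window was at hand, had 9.07 and 21.5 CPM in WT and 5.29 and 5.66 CPM in DDI2-KO. The DDI2-KO libraries were nearly level, and WT library 2 was 2.37 times WT library 1. The log2 fold change was -1.48 with a standard error of 0.40, and it was -0.73 without WT library 2.

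Per1 (ENSMUSG00000020893, chr11:69095217-69109960, plus strand) had 8.95 and 8.22 CPM in WT and 2.9 and 4.22 CPM in DDI2-KO. It was the only member of the day and dusk arm in which WT library 1 exceeded WT library 2. The WT libraries were nearly level, with a mean of 8.59 ± 0.517 CPM (SD, n = 2), and the DDI2-KO mean was 3.56 ± 0.936 CPM (SD, n = 2). The log2 fold change was -1.27 with a standard error of 0.25 and ran from -1.56 to -1.02 with 1 library left out. It thus had a similar fold change to Per2 but a different spread within the groups.

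**Figure D2:**
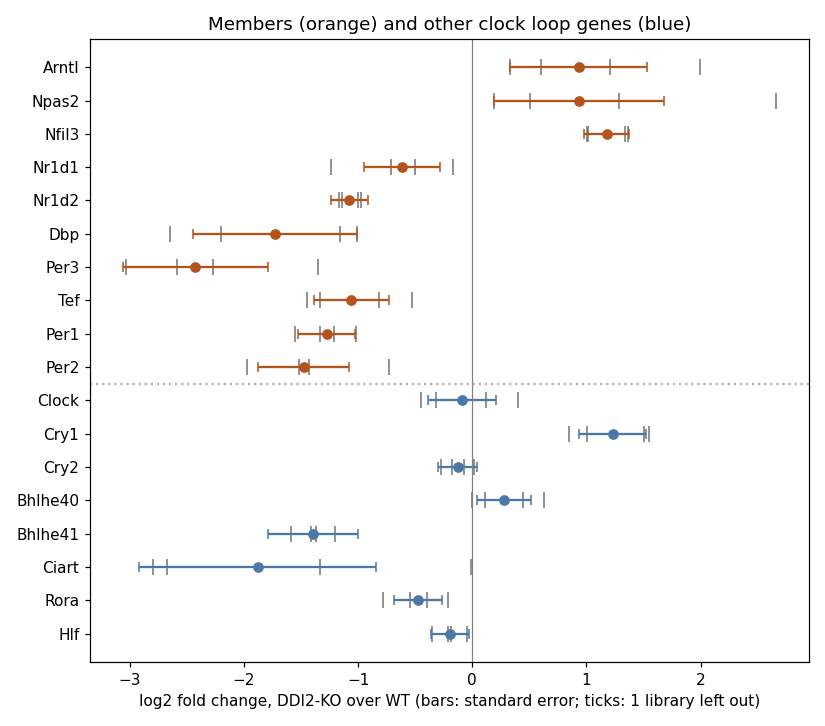
Log2 fold change of DDI2-KO over WT (horizontal axis) for the 10 members (orange) and 8 other genes of the loop (blue), with bars for the standard error of the edgeR fit and grey ticks for the 4 values obtained with 1 library left out. The 3 members of the dawn arm lie right of 0 and the 7 of the day and dusk arm left of it under every omission, while Ciart reaches -0.02 without WT library 2.

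Per kilobase of exon, the members spanned a wide range of abundance. Nr1d1 led with a mean over the 4 libraries of 44.1 CPM per kb (22.5 to 57.2), followed by Dbp at 14.3 (3.49 to 30.6), Nr1d2 at 13.5 (8.2 to 19.5), Tef at 12.8 (6.84 to 22.7) and Nfil3 at 11.6 (6.24 to 17.9). Arntl at 2.00 CPM per kb (0.658 to 3.18), Per2 at 1.77 (0.904 to 3.67), Per3 at 1.68 (0.471 to 4.34), Per1 at 1.08 (0.515 to 1.59) and Npas2 at 0.457 (0.0946 to 0.763) made up the lower tier. The one step between neighbours in this order that exceeded their range over the libraries was that from Nfil3 to Arntl, and all other neighbours overlapped. Exons of Dbp, Nr1d1 and Tef overlap genes on the opposite strand, Sphk2 over 18.0% of the exon bases of Dbp, Thra over 8.5% of those of Nr1d1 and Gm17597 over 2.5% of those of Tef. The setting for strand used in counting is not given in the sources used here, so the levels of these 3 genes are uncertain to that extent. In the longest transcript, 27.5% of the stretches of 50 bases of Dbp were also found in transcripts of Sphk2, 8.23% of those of Nr1d1 in Thra and 3.31% of those of Tef in Gm17597. For Nr1d2 the share was 6.0%, with AC170187.1, with which its exons do not overlap in the annotation.

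Each library was then set against the known order of the peaks. For every member the log2 CPM was centred on its mean over the 4 libraries, and the centred values were read from the dawn arm to the early night. WT library 2 ran from low to high: it was at -1.40 in Arntl, -1.93 in Npas2 and -0.42 in Nfil3, passed 0.46 in Nr1d1 and 0.64 in Nr1d2, reached 1.50 in Dbp and 1.95 in Per3, and stood at 0.97 in Tef, 0.59 in Per1 and 1.30 in Per2. DDI2-KO library 2 ran the other way, at 0.87 in Arntl, 1.08 in Npas2 and 0.76 in Nfil3 and then at -0.89 in Nr1d1, -0.46 in Nr1d2, -1.64 in Dbp, -1.26 in Per3, -0.76 in Tef, -0.38 in Per1 and -0.63 in Per2. These 2 libraries held both extremes in Arntl, Npas2, Nr1d1, Dbp, Per3 and Tef.

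The remaining pair of libraries lay between them. WT library 1 was above its 4-library mean in all members but Nfil3, where it was at -0.76, and its positive values ran from 0.04 in Tef to 0.71 in Per1. It thus had Arntl (0.27) and Npas2 (0.55) on the same side as Dbp (0.30), Per3 (0.26) and Per1. DDI2-KO library 1 was at 0.26 in Arntl, 0.30 in Npas2, 0.42 in Nfil3 and 0.18 in Nr1d1 and below 0 in all later peaks, from -0.16 in Dbp to -0.95 in Per3. It was therefore the one library in which Nr1d1 kept the sign of the dawn arm while Nr1d2 did not.

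**Figure D3:**
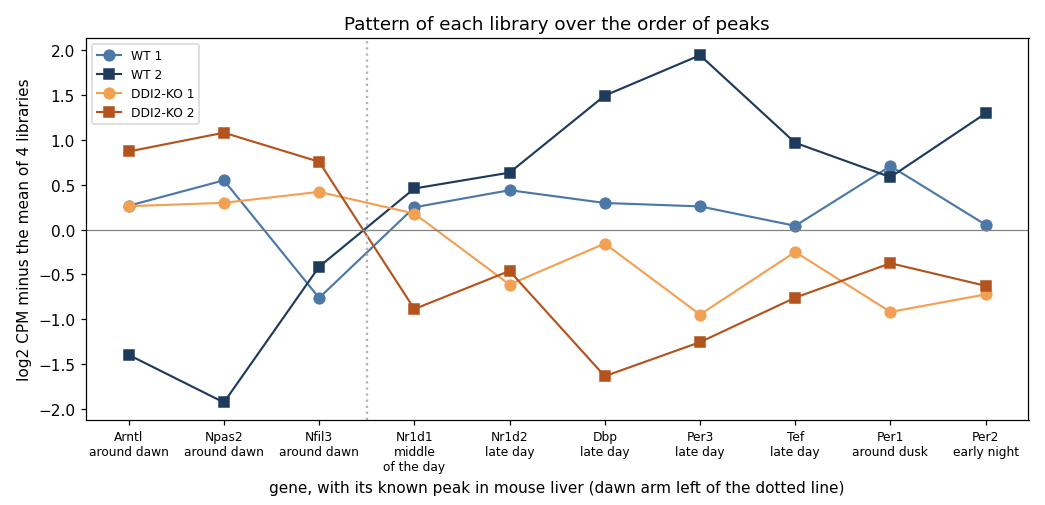
Log2 CPM of each member minus its mean over the 4 libraries (vertical axis) against the members in the known order of their peaks (horizontal axis), 1 line per library, with the dawn arm left of the dotted line. The lines of WT library 2 and DDI2-KO library 2 cross between Nfil3 and Nr1d1, and those of WT library 1 and DDI2-KO library 1 lie between them in Arntl, Npas2, Dbp, Per3 and Tef.

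Averaged over each arm, the centred log2 level of the dawn arm was 0.02 in WT library 1, -1.25 in WT library 2, 0.33 in DDI2-KO library 1 and 0.90 in DDI2-KO library 2. That of the day and dusk arm was 0.29, 1.06, -0.49 and -0.86 in the same order. The difference between the arms, from which any scaling of a library cancels, was therefore -0.28 in WT library 1, -2.30 in WT library 2, 0.82 in DDI2-KO library 1 and 1.76 in DDI2-KO library 2. Each WT library was below 0 and each DDI2-KO library above it, but the gap between the WT libraries was larger than that between WT library 1 and DDI2-KO library 1.

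Distances over the whole set gave the same picture. The root mean square difference in log2 CPM over the 10 members was 0.715 between the DDI2-KO libraries and 0.871 between WT library 1 and DDI2-KO library 1. The WT libraries were 1.26 apart, further than WT library 1 lay from DDI2-KO library 1 or from DDI2-KO library 2 (1.16). WT library 2 was 1.70 from DDI2-KO library 1 and 2.15 from DDI2-KO library 2. WT library 2 was thus the library farthest from the others in these genes.

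Individual members showed where the libraries of a genotype parted. From WT library 1 to WT library 2, Arntl went to 0.315 and Npas2 to 0.179 of the level, whereas Per3 was 3.22, Per2 2.37, Dbp 2.30 and Tef 1.90 times as high. Nfil3 (1.27), Nr1d1 (1.16), Nr1d2 (1.15) and Per1 (0.918) barely differed between the WT libraries by comparison. Between DDI2-KO library 1 and DDI2-KO library 2, Dbp (0.358) and Nr1d1 (0.478) were lower in the latter, Tef (0.702) and Per3 (0.808) were somewhat lower, and Npas2 (1.72), Arntl (1.53) and Per1 (1.46) were higher. In Arntl and Npas2 the range between the WT libraries exceeded the difference between the group means, and in Nr1d1 the range between the DDI2-KO libraries did.

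The libraries with number 1 and those with number 2 also gave different sizes of the genotype difference, although nothing pairs these mice. DDI2-KO library 1 had 0.996 of the Arntl level of WT library 1, 0.953 of its Nr1d1, 0.817 of its Tef and 0.731 of its Dbp. It differed from that library by more in Per1 (0.324), Per3 (0.433), Nr1d2 (0.481), Per2 (0.583) and Nfil3 (2.27). Against WT library 2, DDI2-KO library 2 had 4.82 times the Arntl and 8.07 times the Npas2, and WT library 2 had 9.21 times the Per3, 8.77 times the Dbp and 3.80 times the Per2 of DDI2-KO library 2. Nfil3 (2.27 and 2.25) and Nr1d2 (ratios of 0.481, and 2.14 in the inverse direction) were thus nearly the same in both comparisons.

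Ratios of reads between members of the same library need no scaling. The ratio of Arntl to Per3 reads was 1.21 and 0.119 in WT and 2.79 and 5.28 in DDI2-KO, and that of Nfil3 to Dbp was 0.317 and 0.176 in WT and 0.984 and 3.47 in DDI2-KO. Both ratios set a gene of the dawn arm against a gene of the late day, and both were higher in either DDI2-KO library than in either WT library. The ratio of Arntl to Nr1d1 was 0.103 and 0.0281 in WT and 0.108 and 0.345 in DDI2-KO, so that WT library 1 and DDI2-KO library 1 were nearly alike. The ratio of Nr1d1 to Per2, genes of the middle of the day and of the early night, was 16.8 and 8.19 in WT and 27.4 and 12.2 in DDI2-KO, and here the groups overlapped and library 1 exceeded library 2 in each of them.

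Some members had nearly the same pattern over the 4 libraries. The smallest root mean square difference between centred log2 levels was 0.209, between Nr1d2 and Per1, followed by 0.296 between Tef and Per2 and 0.32 between Arntl and Npas2. Dbp and Per3 were 0.495 apart. With 4 libraries these are descriptions of the same few mice and carry no test.

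Outside the members, the 3 genes closest to Arntl among 11964 genes with at least 1 CPM on average and reads in every library were Acnat2 (69.4 and 25 CPM in WT, 65.1 and 107 CPM in DDI2-KO; distance 0.102), Retsat (0.174) and Vnn1 (0.183). Like Arntl, each had its lowest level in WT library 2 and its highest in DDI2-KO library 2. The 3 were picked by their likeness to Arntl, so nothing is read from this. Closest to Per3 were Gm3839 (2.56 and 10.4 CPM in WT, 1.08 and 1.00 CPM in DDI2-KO; distance 0.148), Gnat1 (0.279) and the α-globin gene Hba-a1 (0.328). Hba-a1 is nearly a copy of Hba-a2, so reads may be split between them. It had 25.6 and 47.6 CPM in WT and 10.3 and 8.83 CPM in DDI2-KO (log2 fold change -1.94). No p is given for Hba-a1, since it was picked by its likeness to Per3. The 4 erythroid markers summed to 101 to 194 CPM in WT and 61.8 to 73.6 CPM in DDI2-KO, a difference whose part in the members' values was not tested. Closest to Dbp were Gucy2c (0.188), Col4a3 (0.242) and Atp6v0d2 (0.266), the last with 29.0 and 56.1 CPM in WT and 29.5 and 8.70 CPM in DDI2-KO.

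8 other genes of the loop were tested, and none passed an adjusted p of 0.05 in edgeR's quasi-likelihood test. At an unadjusted p under 0.05 in edgeR's test there were 2, beside 3216 of all 13699 genes tested. Nothing is read from this count or from the like counts of the lists below. DESeq2 called 1 and limma-voom and limma-trend called 0. Their median log2 fold change was -0.16, and their groups lay apart in 4, with 1 higher and 3 lower. Over all genes tested the groups lay apart in 55.7%, with 28% higher and 27.7% lower, so nothing is read from this count.

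Cry1, an inhibitor that peaks later in the night than the Per genes, had 5.38 and 3.82 CPM in WT and 8.23 and 13.4 CPM in DDI2-KO. Both DDI2-KO libraries were above both WT libraries, the direction of the dawn arm. The log2 fold change was 1.23 with a standard error of 0.29 (edgeR adjusted p = 0.0668), the adjusted p was 0.0098 from DESeq2, and it ran from 0.000927 to 0.214 over the alternatives. Its paralogue Cry2 was level, with 33.2, 35.8, 34.7 and 28.5 CPM in WT libraries 1 and 2 and DDI2-KO libraries 1 and 2.

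Ciart, a repressor of the loop whose promoter carries the 3 E-boxes shown above, had 28, 164, 31 and 10 reads in WT libraries 1 and 2 and DDI2-KO libraries 1 and 2, or 0.833, 5.31, 1.2 and 0.435 CPM. WT library 2 alone stood out, and the groups overlapped. Its log2 fold change of -1.88 (SE 1.04, edgeR adjusted p = 0.353) was -0.02 without WT library 2, and without WT library 1 it was -2.68 with an adjusted p of 0.0341. The adjusted p reached 0.993 among the alternatives.

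Bhlhe41, which encodes the repressor DEC2, had 48, 43, 12 and 14 reads in WT libraries 1 and 2 and DDI2-KO libraries 1 and 2, or 1.43, 1.39, 0.464 and 0.609 CPM. The libraries of each group were close, and the log2 fold change was -1.39 with a standard error of 0.40 (edgeR adjusted p = 0.0914, from 0.0496 to 0.329 over the alternatives). Its paralogue Bhlhe40 had 91.1 and 142 CPM in WT and 125 and 158 CPM in DDI2-KO (edgeR adjusted p = 0.528).

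Clock itself, the partner of BMAL1, had 43.4 and 24.0 CPM in WT and 26.9 and 36.5 CPM in DDI2-KO, with overlapping groups and a log2 fold change of -0.09 (edgeR adjusted p = 0.888). Rora, an activator at ROREs, had 58.1 and 52.6 CPM in WT and 31.9 and 47.6 CPM in DDI2-KO (log2 fold change -0.48, edgeR adjusted p = 0.215). Without DDI2-KO library 2 its log2 fold change was -0.79 with an adjusted p of 0.0438 from edgeR, which was at most 0.577 over the alternatives. Hlf, the remaining PAR bZIP factor of the liver, had 47.1 and 48.1 CPM in WT and 37.0 and 45.9 CPM in DDI2-KO, a log2 fold change of -0.20 (edgeR adjusted p = 0.517) beside -1.73 for Dbp and -1.06 for Tef. The libraries that were extreme for Dbp and Tef were thus near the others for Hlf.

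The enzymes that set the stability of the PER and CRY proteins, 8 kinases and ubiquitin ligases, had a median log2 fold change of 0.03, and none was called by edgeR, with 2 at an unadjusted p under 0.05, 1 called by DESeq2 and 0 by limma-voom and limma-trend. The largest differences were those of Fbxw11, a ubiquitin ligase subunit that recognises PER proteins (log2 fold change 0.71 ± 0.18, SE, edgeR adjusted p = 0.0732), and of Csnk1d, which encodes casein kinase 1δ (0.50 ± 0.15, SE, edgeR adjusted p = 0.107). The adjusted p of Fbxw11 ran from 0.00663 to 0.34 over the alternatives and that of Csnk1d from 0.0688 to 0.413.

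Genes known as outputs of the PAR bZIP factors were split in direction. Of 11, 6 had positive and 5 negative log2 fold changes, the median was 0.17, and edgeR called 1, which was higher, while DESeq2 called 4 and limma-voom and limma-trend 0. Acot4, an acyl-CoA thioesterase from a cluster of related genes whose reads may be split among them, had 33.4 and 26.6 CPM in WT and 50.2 and 63.7 CPM in DDI2-KO. It was higher in both DDI2-KO libraries (log2 fold change 0.92 ± 0.19, SE, edgeR adjusted p = 0.0489). The call ended under limma-voom (adjusted p = 0.0654) and limma-trend (0.0676). In edgeR it ended with upper-quartile scaling (adjusted p = 0.0548), a filter of 1 CPM on average (0.0543) and no robust estimation (0.0639). The lowest adjusted p, 0.000347, came from edgeR without the filter on low counts. With 1 library left out the log2 fold change ran from 0.75 to 1.10. The call also ended without WT library 1, without WT library 2 and without DDI2-KO library 2. Por, the reductase that serves cytochromes P450, is named after its values were seen, with 283 and 318 CPM in WT and 190 and 107 CPM in DDI2-KO (log2 fold change -1.02, edgeR adjusted p = 0.0833 and 0.00523 from DESeq2, at most 0.192 over the alternatives).

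Other rhythmic outputs of the liver leaned to the lower side. Of 11 genes, 8 had negative log2 fold changes, the median was -0.59, and edgeR called 1. Noct, a rhythmic phosphatase also called nocturnin, had 6.72 and 8.90 CPM in WT and 3.32 and 2.65 CPM in DDI2-KO. It was lower in both DDI2-KO libraries (log2 fold change -1.38 ± 0.26, SE, edgeR adjusted p = 0.0407). The call ended under limma-voom (adjusted p = 0.0591), limma-trend (0.0553) and edgeR without robust estimation (0.0529). The lowest adjusted p, 0.00025, came from edgeR without the filter on low counts. With 1 library left out the log2 fold change ran from -1.57 to -1.17. The call also ended without WT library 1, without WT library 2 and without DDI2-KO library 2. DESeq2 called 3 of the 11, all lower, and limma-voom and limma-trend called 0.

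In 4 of the 11 outputs, the level was highest in WT library 2 and lowest in DDI2-KO library 2. Dbp, Per3 and Tef had the same extremes. These 4 outputs were Noct, Usp2, Upp2 and Cyp7a1, and the last 3 of them are named after their values were seen. The share of all genes tested with these extremes was not counted, so nothing is read from the 4. Elovl3, another of the 11 outputs, was also chosen after its values were seen and had a different order. Its level was 2.5 CPM in WT library 1 and 2.63 CPM in DDI2-KO library 1. It was only 0.0647 CPM in WT library 2, on 2 reads, and 0.218 CPM in DDI2-KO library 2, on 5 reads. The groups overlapped (log2 fold change 0.16 ± 1.79, SE, edgeR adjusted p = 0.969). Cyp7a1, the rate-limiting enzyme of bile acid synthesis, had 118 and 287 CPM in WT and 152 and 95.6 CPM in DDI2-KO, with overlapping groups. Usp2, a rhythmic deubiquitinase, had 2.89 and 12.3 CPM in WT and 2.63 and 1.96 CPM in DDI2-KO, so WT library 2 stood alone. Its log2 fold change of -1.72 (SE 0.75, edgeR adjusted p = 0.261) was -0.33 without that library and -2.42 without WT library 1, where the adjusted p was 0.00704, and it was at most 0.763. Upp2, a uridine phosphorylase of liver, had 419 and 867 CPM in WT and 279 and 208 CPM in DDI2-KO (log2 fold change -1.40 ± 0.36, SE, edgeR adjusted p = 0.0851, from 0.0004 to 0.324 over the alternatives).

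**Figure D4:**
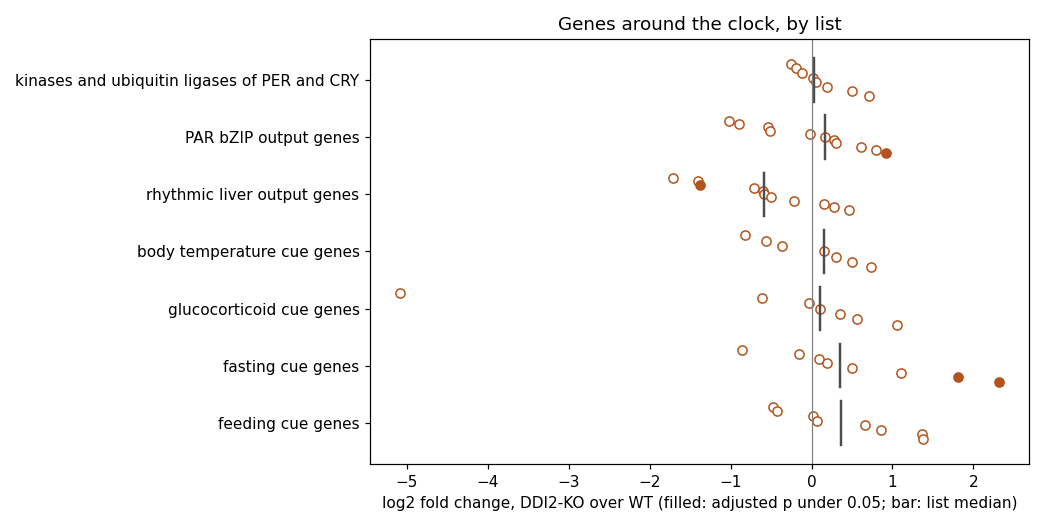
Log2 fold change of DDI2-KO over WT (horizontal axis) for each tested gene of the 7 lists around the clock, with filled points for an adjusted p under 0.05 in edgeR's test and dark bars for the list medians. The medians lie between -0.59 for the rhythmic liver output genes and 0.36 for the feeding cue genes, and 4 points are filled.

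Cues that reset the liver clock were read from further lists, beside the members, and their part in the members' values was not tested. Of 8 fasting genes, 6 had positive and 2 negative log2 fold changes, with a median of 0.35. EdgeR and limma-voom each called 2, both higher, and DESeq2 called 3, 2 higher and 1 lower. Ppargc1a, named after its values were seen, was lower in both DDI2-KO libraries. It had 15.9 and 13.3 CPM in WT and 7.38 and 8.79 CPM in DDI2-KO (log2 fold change -0.86, edgeR adjusted p = 0.065). Pdk4, the kinase that slows pyruvate oxidation in fasting, had 6.78 and 6.93 CPM in WT and 35.5 and 32.6 CPM in DDI2-KO. It was higher in both DDI2-KO libraries (log2 fold change 2.31 ± 0.17, SE, edgeR adjusted p = 0.00911, and at most 0.0206 over the alternatives). G6pc, the last enzyme of glucose production, had 119 and 71.5 CPM in WT and 259 and 409 CPM in DDI2-KO (log2 fold change 1.81 ± 0.32, SE, edgeR adjusted p = 0.0429), and its adjusted p was 0.0567 without DDI2-KO library 1 and 0.0947 without DDI2-KO library 2, the highest over the alternatives.

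Of 8 genes of feeding, 6 had positive log2 fold changes, the median was 0.36 and edgeR called 0, with 3 at an unadjusted p under 0.05, 2 called by DESeq2 and 0 by limma-voom and limma-trend. The largest of them, Scd1, a desaturase of fatty acid synthesis, had 4130 and 13700 CPM in WT and 23200 and 23100 CPM in DDI2-KO (log2 fold change 1.37, edgeR adjusted p = 0.277), and Pnpla3 had 8.15 and 20.6 CPM in WT and 28.4 and 45.4 CPM in DDI2-KO (1.36, edgeR adjusted p = 0.209). Without WT library 2 the log2 fold change was 2.49 for Scd1 (edgeR adjusted p = 9.46e-05, at most 0.595 over the alternatives) and 2.18 for Pnpla3 (edgeR adjusted p = 0.0111, at most 0.603), and DESeq2 called Pnpla3. Without WT library 1 it was 0.75 for Scd1 and 0.84 for Pnpla3. WT library 2 was nearer to the DDI2-KO libraries than WT library 1 in both, the reverse of its place in Arntl, Dbp and Per3.

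Of 7 tested genes of body temperature, edgeR called 0, with 2 at an unadjusted p under 0.05, 1 called by DESeq2 and 0 by limma-voom and limma-trend. The largest differences were in the chaperone genes Hsp90aa1, with 31.0 and 17.6 CPM in WT and 17.8 and 9.57 CPM in DDI2-KO (log2 fold change -0.83, from -1.34 to -0.36 with 1 library left out, edgeR adjusted p = 0.259), and Dnajb1, with 11.7, 12.9, 21.3 and 19.7 CPM in the same order (0.73, edgeR adjusted p = 0.0628, from 0.0113 to 0.316 over the alternatives). They pointed in opposite directions.

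Of 7 glucocorticoid genes, edgeR called 0, with 2 at an unadjusted p under 0.05, 1 called by DESeq2, 0 by limma-voom and 1 by limma-trend. Mt2, a metallothionein that also answers to metals, had 1743, 424, 24 and 23 reads in WT libraries 1 and 2 and DDI2-KO libraries 1 and 2, or 51.8, 13.7, 0.927 and 1.00 CPM. Its level in either DDI2-KO library was far below both WT libraries (log2 fold change -5.09 ± 0.90, SE, edgeR adjusted p = 0.0803), it was called by DESeq2 and limma-trend, and its adjusted p was at most 0.435 over the alternatives. Zbtb16 had 5.21 and 3.33 CPM in WT and 13.0 and 4.79 CPM in DDI2-KO (1.06, edgeR adjusted p = 0.261), with overlapping groups. Its log2 fold change was 0.17 without DDI2-KO library 1 and 1.61 without DDI2-KO library 2, where the edgeR adjusted p was 0.038, and the adjusted p was at most 0.807 over the alternatives. The median of this list was 0.11.

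Markers of other liver cells and nuclear RNAs were summed beside the members, and their part in the members' values was not tested. The summed level of 5 macrophage markers was 542 to 636 CPM in WT and 678 to 795 CPM in DDI2-KO. That of 5 stellate cell markers was 412 to 424 CPM in WT and 367 to 408 CPM in DDI2-KO. For 5 leukocyte markers it was 26.7 to 26.9 CPM in WT and 18.7 to 21.3 CPM in DDI2-KO. For 5 biliary markers it was 52.8 to 56.4 CPM in WT and 68.7 to 70.4 CPM in DDI2-KO. Most of the biliary sum was Spp1, with 51.9 and 46.3 CPM in WT and 64.2 and 62.4 CPM in DDI2-KO. The groups overlapped in Krt7, Epcam and Sox9, and Krt19 was at most 0.827 CPM. No single marker of these 4 lists was called. The 5 markers of sinusoidal endothelium summed to 310 to 338 CPM in WT and 302 to 307 CPM in DDI2-KO, with Stab2 lower (log2 fold change -1.10, edgeR adjusted p = 0.0288, and 0.109 without WT library 1, the highest over the alternatives). The nuclear RNAs Malat1 and Neat1 summed to 162 to 217 CPM in WT and 49.1 to 75.1 CPM in DDI2-KO and were both called lower, with log2 fold changes of -1.29 and -1.78 (edgeR adjusted p = 0.0224 and 0.0438), the direction of the day and dusk arm. The call of Neat1 ended without WT library 1, with an adjusted p of 0.0559, and without DDI2-KO library 1, with one of 0.0921, the highest over the alternatives. None of the markers was at or under 3 reads in all libraries.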

How the data were processed

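The authors deposited raw counts, the reads on each Ensembl gene, for 4 liver libraries. The submitters' processing notes name cutadapt 1.8, STAR 2.5.2b and HTSeq 0.6.1, and the setting for strand is not given in the sources used here. Summary lines of the counting program stayed out of library sizes. Relative to the reads on genes, reads on no gene were 2.53% to 5.11%, ambiguous reads 2.5% to 3.66% and reads without a unique alignment 47.3% to 65.8%, the last highest in WT library 1. Symbols, positions and exon lengths come from GENCODE (build GRCm38), where 48349 of the 48709 identifiers were found.

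Expression was compared by edgeR 4.0.16 in R 4.3.3 (TMM scaling, filterByExpr, glmQLFit with robust estimation, glmQLFTest) over the 4 libraries without covariates, with Benjamini-Hochberg adjustment over the 13699 genes tested. The standard error is the log2 fold change divided by the square root of F. The study used limma's moderated test, run here as an alternative because the values are counts. Other scalings (RLE, upper quartile, library totals), other tools (DESeq2 1.42.0, and limma 3.58.1 with voom or with a trend and prior count 2), other filters (none, or 1 CPM on average), a fit without robust estimation, a block for the replicate number and the omission of each library served as alternatives. The chi-square per degree of freedom between libraries of a group was 48.5 in WT and 26.3 in DDI2-KO, more than counting noise gives, so each counts as 1 sample. With 2 mice per group, their number limits the precision more than depth does.

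The members, the gene lists and the tests were chosen with earlier results of these data known. No p is given for the members. Named are the 10 members, the 8 other loop genes, in each other list the genes with an adjusted p under 0.05 or, failing any, the 2 with the largest log2 fold change in size, Ddi2, and the 3 genes nearest in pattern to Arntl, Per3 and Dbp. Hba-a1 enters as one of the latter. Por, Usp2, Upp2, Cyp7a1, Elovl3, Ppargc1a, Stab2, Malat1 and Neat1 were chosen after their values were seen. Sequences are RefSeq promoter windows of GRCm38.p6. A further gene of the loop is not reported here.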

Additional observations from a re-analysis of the deposited data

How the results depend on the processing

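No member changed sign under any alternative, and with other settings than omission of a library the median log2 fold change stayed between 0.89 and 1.18 for the dawn arm and between -1.33 and -1.22 for the day and dusk arm. With 1 library left out, it ran from 0.33 to 2.00 for the dawn arm, lowest without WT library 2, and from -1.45 to -0.98 for the day and dusk arm. A group left with 1 library is assumed to vary like the other.

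Over all genes, edgeR called 346, against 932 by DESeq2, 136 by limma-voom, 139 by limma-trend, 1544 without the filter on low counts and 152 without robust estimation. With 1 library left out the count ran from 153 to 631. Among the 8 other loop genes, edgeR called 0, DESeq2 1 and the fit without the filter 2, and with 1 library left out the count ran from 0 to 1. With 1 library left out, 3 of these genes changed sign: Clock ran from -0.45 to 0.40 (0.118 without DDI2-KO library 1), Bhlhe40 from -0.003 without WT library 1 to 0.63, and Cry2 from -0.28 to 0.016 without DDI2-KO library 2. The cause of these changes was not tested. The other named genes were put through the alternatives, except Cyp7a1, Elovl3, Ppargc1a and the genes nearest in pattern. Settings besides omission of a library gave the same side of the threshold in 237 cases, took 23 past it and 9 out of it.

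The labels give both genotypes replicate numbers 1 and 2, and nothing pairs the mice. The deviations of same-numbered libraries from their group means correlated at 0.0465 across genes. With the replicate number as a block, 1108 genes and 1 other loop gene were called, Hsp90aa1, Zbtb16 and Pnpla3 among the former, and Neat1 was not.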
